A study of Mus musculus with 2 samples.

Results

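The genes described here are 34 genes of the cell division cycle, 15 that act in DNA replication and 19 that act in mitosis. They were chosen by symbol from the 30941 genes that carry a symbol on the arrays. Each of the 34 was measured by a single probe set, a group of short array probes for 1 transcript. RNA from 1 stomach per genotype was hybridised to 1 Affymetrix array, so there are 2 arrays in all. The first mouse, called MIST1-LSL here, carried Atp4bCre and the MIST1-LSL allele, and the second, the control, carried Atp4bCre alone. Both were 12 weeks old and of a mixed background backcrossed to C57/B6. Atp4bCre places Cre recombinase under the promoter of a proton pump subunit of acid-secreting parietal cells, and LSL is a stop cassette that Cre removes, so that MIST1 is made in those cells. The tissue is labelled as corpus, but according to the series' design text the whole stomach was used. The comparison asks how gene levels differ in the stomach when parietal cells are made to express MIST1, a transcription factor of secretory cells.

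Cells copy their DNA in S phase and divide the copies in mitosis, and most genes of either task are transcribed only in cycling cells. In S phase a ring of MCM proteins unwinds the DNA, a sliding clamp holds the polymerases, and dedicated enzymes supply the deoxynucleotides. In mitosis cyclin B with CDK1 drives entry, Aurora and Polo-like kinases organise the spindle, and the anaphase-promoting complex starts the separation of the chromosomes. In the gastric corpus division takes place mainly in progenitor cells of the gland isthmus, while mature parietal cells do not divide. The forestomach of the mouse has a dividing basal layer of squamous cells, and lymphocytes in follicles also divide.

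Levels are given on the log2 scale of the deposited values, and differences are MIST1-LSL minus control, so that a difference of 1 is a 2-fold higher level in MIST1-LSL. With 1 array per genotype there is no replicate error and no test between genotypes, and no difference below can be set against the spread between mice. As a scale, the middle 95% of the 17352 genes at or above a floor of 4.62, the median of all values, lay between -0.63 and 0.68. All 34 members lay above this floor on both arrays. Bhlha15, which encodes MIST1, read 5.30 in MIST1-LSL and 5.26 in control. Which part of the transcript its probes cover is not given, so this value does not check the label. The parietal pump subunit Atp4a read 11.43 in MIST1-LSL and 11.53 in control, and Atp4b read 12.11 in MIST1-LSL and 12.13 in control, so the labelled tissue's defining transcripts were present on both arrays. In bulk tissue, fewer cells of a type and less RNA per cell cannot be told apart.

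The 2 groups of genes lay on different sides of 0, by small amounts. Of the replication genes, 11 of 15 were lower in MIST1-LSL, with a median difference of -0.21. Of the mitosis genes, 12 of 19 were higher, with a median of 0.15. Among all genes at the floor 53.1% were lower and 44.9% higher, and the median was -0.03. No member differed by 2-fold, a size reached by 1.44% of genes at the floor. A single member, Mcm5, differed by at least 1.5-fold, a size reached by 6.8% of genes at the floor, and by 3.31% in the lower direction. The share of members past either size was therefore not above that of all genes. Of the replication genes, 8 lay below -0.21, the 25th percentile of genes at the floor, and 0 lay above 0.17, the 75th percentile. Of the mitosis genes, 2 lay below the 25th percentile and 8 above the 75th.

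**Figure D1:**
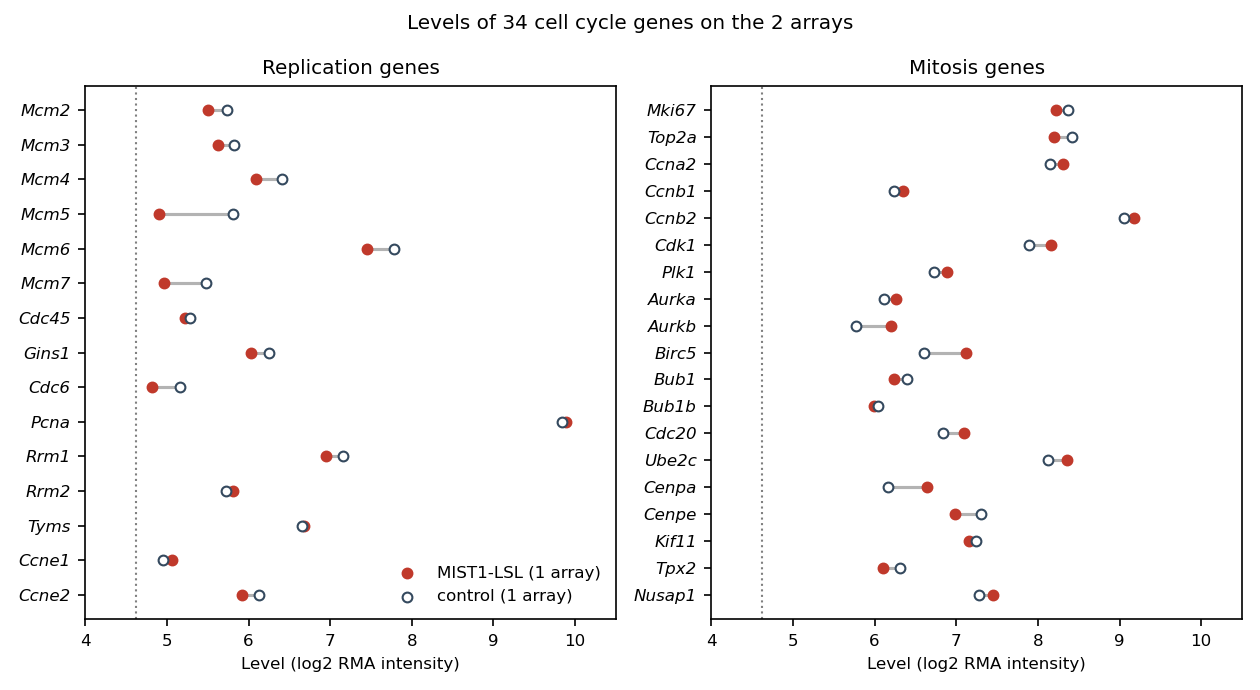
Levels of the 15 replication genes (left panel) and the 19 mitosis genes (right panel), on the log2 scale of RMA intensity, with 1 point for the MIST1-LSL array (filled) and 1 for the control array (open). The dotted line is the floor of 4.62. The longest gap is that of Mcm5, at 4.90 in MIST1-LSL and 5.81 in control.

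The 6 subunits of the MCM helicase, Mcm2 to Mcm7, were all lower in MIST1-LSL, with differences from -0.91 to -0.21. Mcm5 differed most. It read 4.90 in MIST1-LSL and 5.81 in control, a difference of -0.91 or a 1.88-fold lower level, and 126 of the 17352 genes at the floor lay further below control. It was the only member outside the middle 95% of these genes. Mcm7 read 4.96 in MIST1-LSL and 5.48 in control, a difference of -0.51. Both MIST1-LSL levels were close to the floor, where presence of a signal above background is uncertain. The other 4 subunits differed less. Mcm6 read 7.45 in MIST1-LSL and 7.79 in control, and Mcm4 read 6.09 in MIST1-LSL and 6.41 in control. Mcm2 read 5.50 in MIST1-LSL and 5.74 in control, and Mcm3 read 5.62 in MIST1-LSL and 5.83 in control. The median of the 6 differences was -0.33. The 6 proteins form a single ring, in which each occupies one place.

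The factors that load and activate the ring were also lower. Cdc6, which helps to load the MCM ring on DNA at the origin, read 4.82 in MIST1-LSL and 5.16 in control, a difference of -0.34. Gins1, a subunit of the GINS complex that turns the loaded ring into an active helicase, read 6.03 in MIST1-LSL and 6.25 in control. Cdc45, the other activator of the helicase, read 5.22 in MIST1-LSL and 5.28 in control. All 9 genes of helicase loading, structure and activation were thus below control, with differences from -0.91 to -0.06.

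Members of other replication steps lay on both sides of 0. Pcna, the sliding clamp, read 9.90 in MIST1-LSL and 9.85 in control. Rrm1 and Rrm2 encode the large and small subunits of ribonucleotide reductase, which makes deoxynucleotides. Rrm1 was lower, at 6.95 in MIST1-LSL and 7.16 in control, whereas Rrm2 was at 5.81 in MIST1-LSL and 5.72 in control. Thymidylate synthase, Tyms, which makes the thymine nucleotide, read 6.68 in MIST1-LSL and 6.65 in control. The cyclins E, which start S phase with CDK2, were split. Ccne1 read 5.07 in MIST1-LSL and 4.96 in control, and Ccne2 read 5.92 in MIST1-LSL and 6.12 in control. Rrm1 had the largest of these 6 differences, -0.21.

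Mammalian replication genes are known targets of E2F transcription factors, and many mitosis genes are known to carry a CHR element together with CCAAT boxes. Promoter windows from the RefSeq table of build GRCm38.p6, 250 bases before to 50 bases after the transcription start, were searched on both strands. The E2F letters searched were TTTCGCGC, TTTGGCGC, TTTCCCGC and TTTGCCGC, the CHR letters were TTTGAA and TTCGAA, and the third motif was CCAAT. The table matched 12 of the 15 replication genes and 16 of the 19 mitosis genes. It did not match Mcm4, Gins1, Ccne2, Ccna2, Aurkb and Tpx2. An E2F match was found for 5 of the 12 replication genes and 1 of the 16 mitosis genes, against 2.61% of 27025 genes in the table. A CHR match was found for 3 of the 12 replication genes and 12 of the 16 mitosis genes, against 21.7% of all genes. CCAAT was found for 9 of 12 and 14 of 16, against 41.1%. A match is a run of letters and does not show binding.

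The 5 replication genes with an E2F match were Mcm3, Mcm5, Mcm6, Mcm7 and Cdc6. All 5 were lower in MIST1-LSL, with a median difference of -0.34. Of the 7 replication genes with a promoter window but no E2F match, 3 were lower, and their median was 0.03. The E2F split also ran along the number of probes, described below. Genes with a match had 28 to 38 probes, and the unmatched Tyms, Rrm2 and Ccne1, all higher, had 13, 22 and 23. Among the other unmatched genes Pcna, with 28, was higher, and Mcm2, Rrm1 and Cdc45, with 29 to 39, were lower. The part of either in the differences was not tested. These splits were made with the differences known and are descriptions. Among mitosis genes the medians were 0.14 with a CHR match, over 12 genes, and 0.14 without one, over 4 genes. The promoters of Mcm5 and Mcm7 are shown because they are the replication genes with an E2F match that lay furthest below control. Capitals mark every E2F, CHR and CCAAT match on either strand, and each sequence runs 5′ to 3′ along the gene. The Mcm5 window is chr8:75109259-75109558 on the plus strand. The Mcm7 window, the more upstream of its 2 windows, is chr5:138171834-138172133 on the minus strand.
Mcm5: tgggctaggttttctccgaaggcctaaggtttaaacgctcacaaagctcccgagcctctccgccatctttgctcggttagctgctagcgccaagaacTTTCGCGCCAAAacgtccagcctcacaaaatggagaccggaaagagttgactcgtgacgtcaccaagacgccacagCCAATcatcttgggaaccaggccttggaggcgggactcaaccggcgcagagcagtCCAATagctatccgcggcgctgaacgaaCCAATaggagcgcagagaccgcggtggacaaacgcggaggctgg
Mcm7: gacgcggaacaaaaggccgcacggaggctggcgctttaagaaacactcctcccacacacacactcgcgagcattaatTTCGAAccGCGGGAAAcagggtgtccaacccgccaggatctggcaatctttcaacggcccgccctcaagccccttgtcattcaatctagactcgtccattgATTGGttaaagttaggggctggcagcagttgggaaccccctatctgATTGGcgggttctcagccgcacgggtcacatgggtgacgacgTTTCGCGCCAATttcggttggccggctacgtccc
In Mcm5 a match to TTTCGCGC starts 153 bases before the start site and overlaps a match to TTTGGCGC read on the opposite strand. In Mcm7 a match to TTTCCCGC on the opposite strand lies 165 bases before the start site, and a match to TTTCGCGC starts at base 17 of the transcript and overlaps a CCAAT.

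The largest differences among the mitosis members were those of 2 subunits of the chromosomal passenger complex and of the centromere histone. Birc5 encodes survivin, a subunit of that complex, which corrects faulty attachments of chromosomes to the spindle. It read 7.12 in MIST1-LSL and 6.61 in control, a difference of 0.51 or a 1.42-fold higher level. Aurkb, the kinase of the same complex, read 6.19 in MIST1-LSL and 5.78 in control, a difference of 0.42. Incenp and Cdca8, subunits of the complex outside the members, differed by -0.11 and -0.03, so the complex was not higher throughout. Cenpa, the histone variant that marks centromeres, read 6.65 in MIST1-LSL and 6.16 in control, a difference of 0.48. Birc5, Aurkb and Cenpa all lay inside the middle 95% of genes at the floor, of which 865 lay further above control than Birc5.

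The cyclins, kinases and degradation factors of mitosis were also higher, by 0.10 to 0.26. Cdk1, the kinase that drives mitotic entry, read 8.15 in MIST1-LSL and 7.89 in control, a difference of 0.26. Its cyclin partners followed with smaller gaps. Ccna2 read 8.31 in MIST1-LSL and 8.15 in control. Ccnb1 read 6.34 in MIST1-LSL and 6.24 in control, and Ccnb2 read 9.18 in MIST1-LSL and 9.06 in control. Plk1 and Aurka are kinases of the centrosome and spindle. Plk1 read 6.89 in MIST1-LSL and 6.72 in control, and Aurka read 6.26 in MIST1-LSL and 6.11 in control. Cdc20, which activates the anaphase-promoting complex, read 7.09 in MIST1-LSL and 6.83 in control, and Ube2c, its ubiquitin-conjugating enzyme, read 8.35 in MIST1-LSL and 8.13 in control. These 8 genes lay on 1 side of 0, and the largest of their differences was 1.20-fold.

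The remaining mitosis genes were mostly lower. Mki67, the usual marker of proliferating cells, read 8.22 in MIST1-LSL and 8.37 in control, a difference of -0.15. Top2a, the topoisomerase that untangles chromosomes, read 8.19 in MIST1-LSL and 8.42 in control. The commonly used pair of proliferation markers therefore differed in sign from Birc5, Cdk1 and the mitotic cyclins, by small amounts. As a scale, differences of separate probe sets of 1 gene had an SD of 0.21, over 484 genes at the floor. Mki67 and Top2a also had 29 and 33 probes and the others 19 to 25, a split described below. Bub1 and Bub1b, kinase-domain proteins of the spindle checkpoint, were both lower. Bub1 read 6.23 in MIST1-LSL and 6.39 in control, and Bub1b read 5.99 in MIST1-LSL and 6.04 in control. Among spindle and kinetochore genes, Cenpe, a kinesin that moves chromosomes to the spindle equator, read 6.99 in MIST1-LSL and 7.30 in control, a difference of -0.31. Kif11, the kinesin that pushes spindle poles apart, read 7.16 in MIST1-LSL and 7.24 in control. Tpx2, a spindle factor that activates Aurora A, read 6.10 in MIST1-LSL and 6.31 in control, and Nusap1, which bundles microtubules, read 7.45 in MIST1-LSL and 7.27 in control. Nusap1 was the only one of these 8 genes above control.

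The promoters of Cenpa and Cdk1 are shown because they are the mitosis genes with a CHR match that lay furthest above control, with capitals as above. The Cenpa window is chr5:30666636-30666935 on the plus strand, and the Cdk1 window is chr10:69352863-69353162 on the minus strand.
Cenpa: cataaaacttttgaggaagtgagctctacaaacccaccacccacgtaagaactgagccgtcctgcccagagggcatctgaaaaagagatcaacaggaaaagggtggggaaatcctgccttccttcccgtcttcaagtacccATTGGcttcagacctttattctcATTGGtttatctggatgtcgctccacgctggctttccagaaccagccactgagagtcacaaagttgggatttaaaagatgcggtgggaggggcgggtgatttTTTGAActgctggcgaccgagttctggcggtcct
Cdk1: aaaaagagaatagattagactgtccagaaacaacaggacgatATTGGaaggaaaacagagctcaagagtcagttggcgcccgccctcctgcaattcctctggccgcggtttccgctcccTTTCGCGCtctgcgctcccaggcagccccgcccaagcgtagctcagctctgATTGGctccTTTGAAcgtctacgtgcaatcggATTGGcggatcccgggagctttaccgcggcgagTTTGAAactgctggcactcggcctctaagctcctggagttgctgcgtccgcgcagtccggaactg
Cenpa has a CHR match that starts at base 17 of the transcript and 2 CCAAT boxes, on the opposite strand, upstream. Cdk1 has 2 CHR matches, 71 and 15 bases before the start site, 3 CCAAT boxes on the opposite strand, and an E2F match 131 bases before the start site. It was the only mitosis gene with an E2F match.

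**Figure D2:**
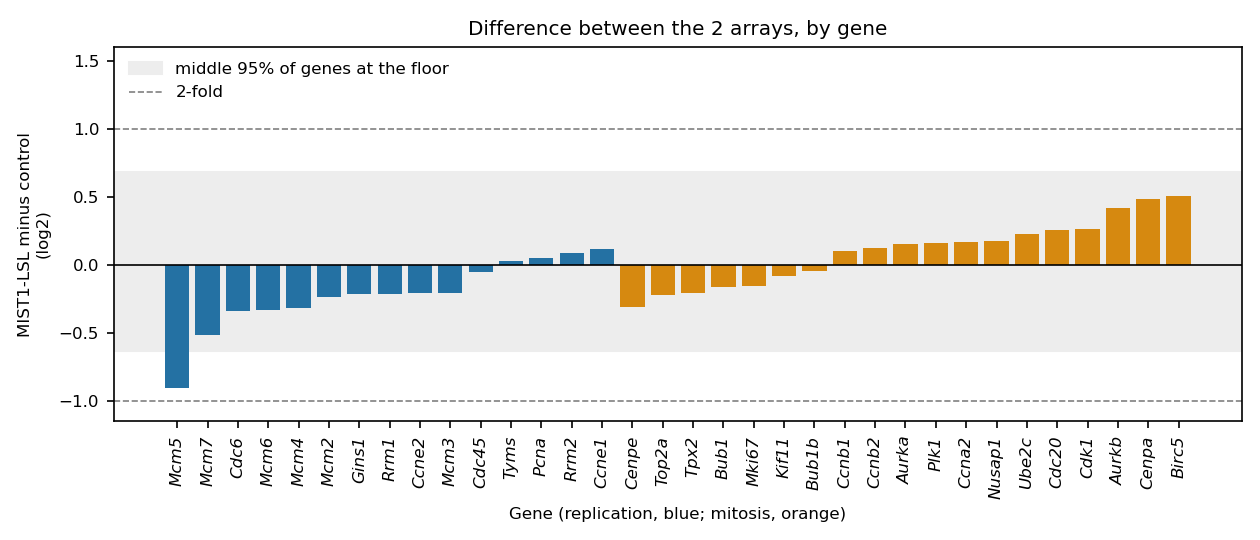
Difference between the MIST1-LSL and the control array (log2) for each member, sorted within the replication genes (blue) and the mitosis genes (orange). The grey band holds the middle 95% of genes at the floor, from -0.63 to 0.68, and Mcm5 at -0.91 is the only bar that leaves it.

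Medians of genes of the same pathways outside the 34 members had the same signs and were smaller. These genes were read on the same 2 arrays and listed with earlier results known, so they are no independent check. Among genes at the floor 53.1% were lower in MIST1-LSL and 44.9% higher. The 42 further replication genes covered origin recognition, polymerases, clamp loader, nucleotide supply and others. Of these 32 were lower in MIST1-LSL and 9 higher, with a median of -0.09. Of the 40 at the floor 32 were lower and 8 higher, with a median of -0.10. At least a 1.5-fold difference was seen for 1 of the 42, in the lower direction, as for 3.31% of genes at the floor. This was Tipin, a fork protection factor, at 6.22 in MIST1-LSL and 6.93 in control. The next largest differences were those of Tk1, thymidine kinase, at -0.52, Clspn, the checkpoint mediator claspin, at -0.51, and Mcm10, a helicase-associated factor, at -0.40.

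Of 55 further mitosis genes, 35 were higher and 19 lower in MIST1-LSL, with a median of 0.07. Among genes at the floor 44.9% were higher and 53.1% lower. At least 1.5-fold higher were 2 of the 55, a size reached by 3.49% of genes at the floor. Kifc1, a kinesin that focuses spindle poles, read 5.58 in MIST1-LSL and 4.71 in control on a probe set of 8 probes. Kifc1 has a close copy in the mouse genome, so its own level is uncertain. Cdca5, sororin, which protects sister chromatid cohesion, read 5.28 in MIST1-LSL and 4.68 in control. Cdc25c, the phosphatase that activates CDK1, was 0.54 higher and Kif2c, a microtubule-depolymerising kinesin, was 0.53 higher. All 4 had a control level between 4.68 and 5.35, near the floor. CHR matches were found for 34 of the 46 further mitosis genes in the promoter table and 6 of the 34 further replication genes. E2F matches were found for 4 of the 46 and 11 of the 34.

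Of 32 regulators of the cycle, 24 were lower in MIST1-LSL and 8 higher, with a median of -0.14, and 0 differed by 1.5-fold. Of the 28 at the floor 20 were lower and 8 higher, where 53.1% of all genes at the floor were lower and 44.9% higher. Ccnd2 and Ccnd1, D cyclins that act in G1, differed by -0.56 and -0.53, with Ccnd2 at 7.54 in MIST1-LSL and 8.10 in control. E2f1, an activator of replication genes, read 4.55 in MIST1-LSL, below the floor, and 5.04 in control. E2f4, which acts mainly as a repressor, was 0.47 higher. Other repressors of the E2F family lay on both sides of 0. E2f6 differed by 0.31, E2f5 by -0.07 and E2f8 by -0.37, and E2f7, below the floor on both arrays, by -0.16.

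**Figure D3:**
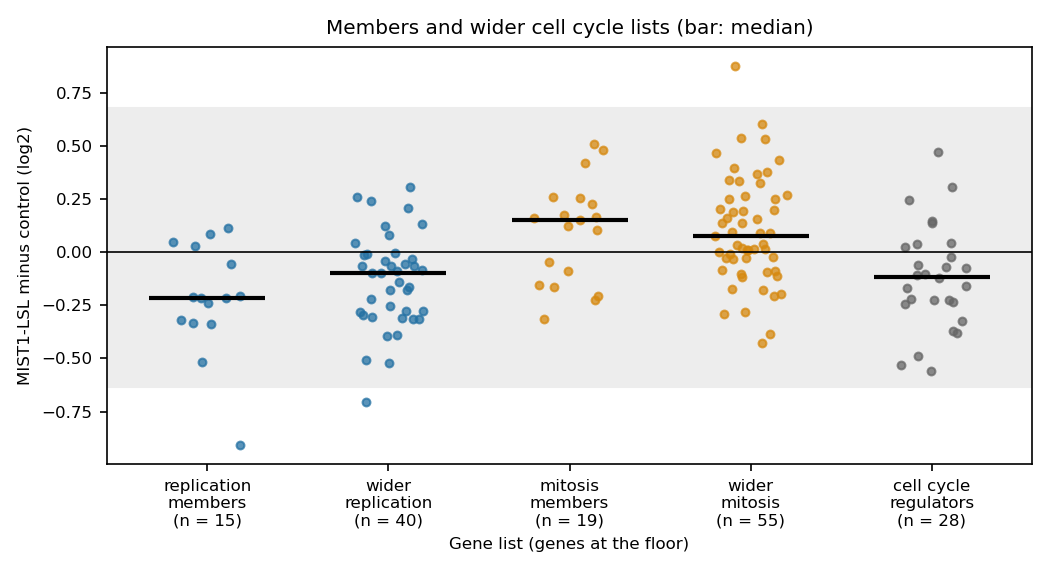
Differences between the MIST1-LSL and the control array (log2) for the members and the wider lists, with 1 point per gene at the floor and a bar at the median. The medians are -0.21 and -0.10 for replication members and further replication genes, 0.15 and 0.07 for mitosis members and further mitosis genes, and -0.11 for regulators. The grey band holds the middle 95% of genes at the floor.

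The number of probes in a probe set moved with the difference. Over the 34 members, which share the same 2 arrays, Spearman's rho between probe number and difference was -0.67 (Pearson's r = -0.57). Over all 17352 genes at the floor rho was -0.08, and the median difference was 0.00 for over 10 and up to 20 probes and -0.16 above 40 probes. Replication genes had a median of 29 probes and mitosis genes 25. With the members split at 25 probes, after their values were seen, the 3 replication genes at or below the split were all higher, and 11 of the 12 above it were lower. Of the mitosis genes, 10 of the 11 at or below the split were higher and 6 of the 8 above it lower, with a median of -0.12. Taken relative to genes with like numbers of probes, the medians were -0.17 for replication and 0.17 for mitosis. Within 20 to 30 probes they were -0.21 over 8 replication genes and 0.16 over 11 mitosis genes. In the wider lists rho was -0.03 for replication and -0.08 for mitosis.

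**Figure D4:**
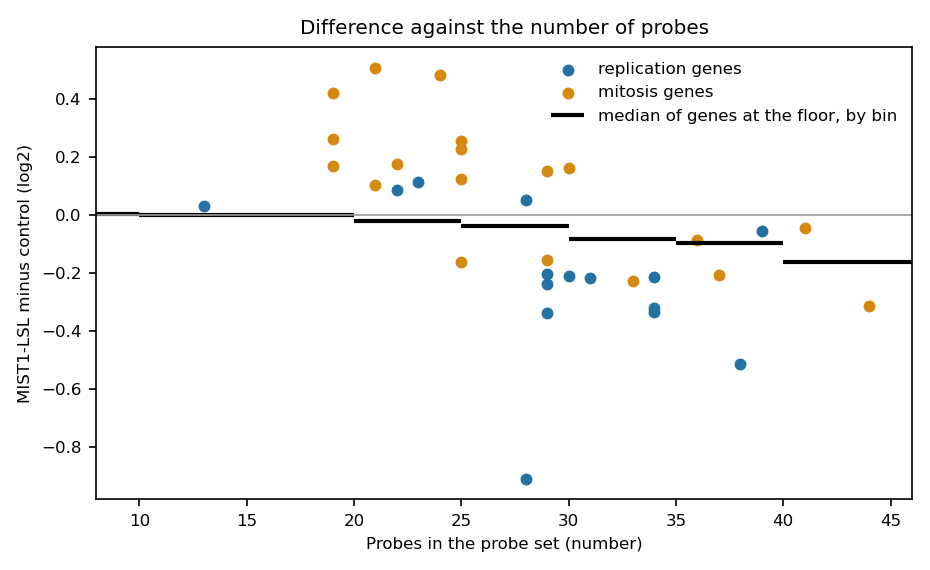
Difference between the MIST1-LSL and the control array (log2) against the number of probes in each member's probe set, with replication genes in blue and mitosis genes in orange. Black lines are medians of all genes at the floor in bins of probe number. Above 40 probes the median of all genes is -0.16, and members with few probes are mostly above 0.

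Markers of other cell types, some of which hold dividing cells, also differed between the stomachs. Of 11 B cell and follicle genes 9 were lower in MIST1-LSL, with a summed intensity of 215.7 in MIST1-LSL and 939.6 in control. Without the follicle chemokine Cxcl13, at 4.99 in MIST1-LSL and 9.49 in control, the sums were 183.9 in MIST1-LSL and 222.8 in control. The B cell genes Cd79a and Cr2 were below the floor on both arrays, with Cd79a at 3.83 in MIST1-LSL and 4.21 in control. Cd79b, Ms4a1 and Pax5 were below the floor in MIST1-LSL and above it in control, with differences of -0.74, -0.52 and -0.27, and Blk read 4.99 on both arrays. Of 8 T cell genes 5 were lower, with sums of 163.6 in MIST1-LSL and 189.7 in control, and 5 of the 8 were below the floor on both arrays. All 6 basal squamous genes were higher, with sums of 660.1 in MIST1-LSL and 539.5 in control and differences from 0.20 for Krt5 to 0.90 for Krt15, the 1 at least 1.5-fold higher (3.49% of genes at the floor). All 9 pancreatic acinar genes and all 7 smooth muscle genes were at least 2-fold higher, a size reached by 0.968% of genes at the floor. The acinar sums were 10277 in MIST1-LSL and 256.9 in control, and the smooth muscle sums 3696 in MIST1-LSL and 1441 in control. Of 9 parietal genes 6 were lower, with sums of 11066 in MIST1-LSL and 11641 in control, and 3 were at least 1.5-fold lower, as were 3.31% of genes at the floor. These were Slc26a7, an anion transporter, at 4.48 in MIST1-LSL and 6.97 in control, Aqp4, a water channel, and Kcnj15, a potassium channel. Aqp4 read 3.96 in MIST1-LSL and 4.73 in control, a difference of -0.77, and Kcnj15 differed by -0.71. Slc26a7 and Aqp4 were below the floor in MIST1-LSL, and Aqp4 was close to it in control. The part of these cell types in the differences of replication and mitosis genes was not tested.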

How the data were processed

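Per the labels' protocols, total RNA of 1 stomach per genotype was amplified, labelled with biotin and fragmented for Affymetrix arrays. Per the submitters' processing notes the authors used RMA and Partek. No version, build or annotation is stated in the sources used. The deposited workbook gives log2 levels for 41345 probe sets. It also holds the authors' linear intensity, their ratio of MIST1-LSL to control intensity, and the number of probes. The deposited series table holds the same log2 levels within 0.005. Enrichment sheets by the authors give, for each term, a p-value and the percent of its genes found in a list.

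Genes were taken by the workbook's symbol, with the probe set of highest mean level, and 8874 probe sets without a symbol were left out. Sgo1 was found under its older symbol. Of the members 34 of 34 had 1 probe set. No rescaling was applied. Sizes of 2-fold and 1.5-fold were counted beside all genes, and the floor was the median of all values. With 1 array per genotype no test was possible, and the number of arrays limits the precision. Named were all members, Bhlha15, the 4 furthest genes of each wider list where none reached 2-fold, and a few cell markers. Incenp, Cdca8, E2f5, E2f6, E2f7 and E2f8 were named outside this rule. Slc26a7, Aqp4, Kcnj15, Cd79b, Ms4a1, Pax5, Blk and Krt15 were named after their values were seen. One marker of the lists is not reported here. Members, lists and motifs were chosen with earlier results of these data known. Analyses used Python 3.11.15, numpy 2.4.6, pandas 2.3.3 and matplotlib 3.10.9.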

Additional observations from a re-analysis of the deposited data

How the results depend on the processing

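Probe-set choice, median centring, quantile normalization, the intensity columns, the series table, floors and a minimum of 10 probes were tried, with 2 alternatives on probe number added after seeing the data. The replication median kept its sign under all 11, from -0.21 to -0.17, and the mitosis median from 0.15 to 0.19. The count of replication genes at 1.5-fold was 1, and 0 when the floor was raised to the 75th percentile, which leaves out Mcm5 and 7 other replication genes. The other counts were equal under all 11. Of 351 values of single members 3 changed sign, those of Cdc45, Bub1b and Kif11 relative to genes with like numbers of probes. Several of the 11 could not move the members or hardly could. Each member had 1 probe set of at least 13 probes, so choices among probe sets and the minimum of 10 probes changed nothing. All members passed the lower floor, and the intensity columns hold the same values without the log. The series table differs by at most 0.005, and median centring shifted all members by the same amount. No paired analysis was possible because each genotype has 1 array. Levels near the floor limit Mcm5, Mcm7, Cdc6 and Ccne1.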

Other observations

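The authors' deposited table of gene ontology terms in a list named for the top 25 of LSL holds 25.7% of the genes of DNA replication and 40% of those of DNA replication initiation. The authors' deposited table on a second, unnamed list holds 10.4% and 10.0% of the same terms. For mitotic nuclear division the authors' deposited tables give 16.7% in the first list and 17.4% in the second, and for spindle 16.7% and 20.6%. For the broad term cell cycle the authors' deposited tables give 19.8% in the first list and 16.7% in the second. The share of all genes in either list is not given here, so these percents cannot be read as enrichment. Neither sheet states whether its genes were higher or lower in MIST1-LSL. In the authors' deposited tables the first list holds 21.9% and the second 32.9% of olfactory receptor activity genes. Of 1126 olfactory receptor probe sets in the workbook, 34.3% lay above the 75th percentile of differences and 23.1% below the 25th. The direction of the lists is not settled by these shares.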
